A study of Mus musculus with 6 samples.

Results

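The 10 genes described here encode negative feedback regulators of MAP kinase signalling: the dual-specificity phosphatases Dusp1, Dusp2, Dusp4, Dusp5, Dusp6 and Dusp10, the Sprouty proteins Spry1, Spry2 and Spry4, and the Sprouty-related protein Spred1. They were chosen by symbol, all 10 were found among the 17794 genes of the deposited table, and all 10 had enough reads to be tested. RNA was sequenced from the whole corneas of mice in which dry eye had been produced with benzalkonium chloride (BAC), a preservative with detergent properties that injures the surface of the eye. The tested corneas came from animals treated for 10 days with luteolin, a plant flavone, and the others from animals treated for 10 days with vehicle, with 3 libraries in each group. Both groups had the same BAC injury and undamaged corneas were not analysed here, so each comparison is between treated and vehicle-treated damaged tissue. Strain, sex, age and the luteolin dose are not given in the labels, and neither is the number of animals behind the libraries. The p-values therefore reflect the spread among these 6 libraries, part or all of which may be technical.

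MAP kinases are activated by phosphorylation at the end of layered kinase cascades that run from growth factor and cytokine receptors, stress and injury to the nucleus. Dual-specificity phosphatases remove the phosphates from ERK, JNK or p38, and Sprouty and Spred proteins act further upstream, between the receptor and RAF. Many of these genes are themselves induced by the signal they restrain, so their transcripts are widely used as readouts of recent pathway activity. In the corneal epithelium, growth factors acting through ERK and p38 take part in wound closure.

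Such induction runs through promoter elements, and the 250 bases before the transcription start are shown for Dusp1 and Dusp5, whose levels varied most between vehicle libraries among the abundant genes, and for Spry1, whose change was the steadiest. The sequences are from RefSeq on build GRCm38.p6, which is not the mm9 build named for these data, and 8 of the 10 genes have an entry in that table. Capitals mark matches to the cyclic AMP response element (CRE, TGACGTCA) or to the CArG box, the binding motif of serum response factor. The Dusp1 window is chr17:26508473-26508722, minus strand, the Dusp5 window chr19:53528895-53529144, plus strand, and the Spry1 window chr3:37639697-37639946, plus strand.
Dusp1: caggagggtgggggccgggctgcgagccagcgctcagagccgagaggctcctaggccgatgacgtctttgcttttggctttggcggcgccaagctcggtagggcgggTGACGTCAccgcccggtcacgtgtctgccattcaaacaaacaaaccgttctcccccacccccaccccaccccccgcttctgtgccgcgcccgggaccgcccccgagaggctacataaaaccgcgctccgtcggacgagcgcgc
Dusp5: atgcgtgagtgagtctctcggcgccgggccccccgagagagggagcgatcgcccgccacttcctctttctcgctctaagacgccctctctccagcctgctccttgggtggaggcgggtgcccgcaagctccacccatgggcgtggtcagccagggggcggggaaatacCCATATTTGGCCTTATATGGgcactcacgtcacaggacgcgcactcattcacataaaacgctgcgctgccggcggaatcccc
Spry1: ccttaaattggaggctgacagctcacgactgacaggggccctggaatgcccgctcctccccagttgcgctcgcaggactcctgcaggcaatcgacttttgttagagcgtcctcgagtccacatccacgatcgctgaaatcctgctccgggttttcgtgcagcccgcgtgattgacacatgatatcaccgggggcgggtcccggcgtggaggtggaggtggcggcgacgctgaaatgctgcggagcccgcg

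Dusp1 held 1 CRE, beginning 143 bases before the start, and Dusp5 held 2 adjoining CArG boxes, beginning 82 and 72 bases before it. On both strands, the CRE was present in 1.55% and the CArG box in 1.47% of 32851 windows of the same length. The AP-1 motif TGANTCA, in 6.75% of windows, was in none of the 8 member windows, and the ETS motif GGAAGT, in 19.7%, was in that of Dusp5 alone. The shorter TGACG, the core of the CRE and contained in it, was in those of Dusp1 and Dusp5 and in 17.8% of windows. A match describes the letters and not the binding of a factor.

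Library totals ran from 16084855 to 16469699 estimated counts, at which 1 read is worth 0.0584 to 0.0650 CPM (read counts scaled to a common library size with TMM factors). The quasi-likelihood test of edgeR, with Benjamini-Hochberg adjustment over 13838 genes and a threshold of 0.05, called 8157 genes, 4208 of them lower and 3949 higher with luteolin. Scaling by library size alone moved the lower share of called genes to 63.6%, against 51.6% with TMM, and the median log2 fold change of all genes to -0.13, against -0.02. The vehicle libraries differed from one another. The summed level of 10 keratocyte genes was 1907 to 4354 CPM in luteolin libraries. In vehicle 1, 2 and 3 it was 4943, 8896 and 3440 CPM. Vehicle 2 was thus the highest, and vehicle 3 lay within the luteolin range. The sum of 11 skeletal muscle genes was 17.9, 17.2 and 90.1 CPM in luteolin 1, 2 and 3 and 122, 204 and 15.0 CPM in vehicle 1, 2 and 3. Here vehicle 3 was far below the other vehicle libraries. Krt12 and Pax6, which define corneal epithelium, were high in every library, at no less than 12532 CPM and 569 CPM.

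The 10 genes did not move in one direction. Dusp1, Dusp2, Dusp10 and Spry4 were lower, Spry1 and Spry2 were higher, and Dusp4, Dusp5, Dusp6 and Spred1 did not pass. The 4 lower genes of 10 compare with 30.4% of all tested genes that were lower, and the 2 higher with 28.5% that were higher, so both counts lie near the background, as does the sum of 6 called beside 58.9% called in either direction. Libraries of the groups did not overlap for 4 of the 10 genes, against 67.4% of all tested genes; 2 of the 10 lay wholly lower, against 33.7% of all tested genes, and 2 of the 10 wholly higher, against 33.8%. The median log2 fold change (luteolin minus vehicle) was -0.44 for the 10 genes and -0.02 for all genes, and Dusp2 and Spry4 were the members called with a change over 1 on the log2 scale. In whole tissue, fewer cells of a type and less RNA per cell cannot be told apart. Without vehicle 2, edgeR called 0 members lower, although 4 were lower at an unadjusted p under 0.05, and the 2 higher calls remained.

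**Figure D1:**
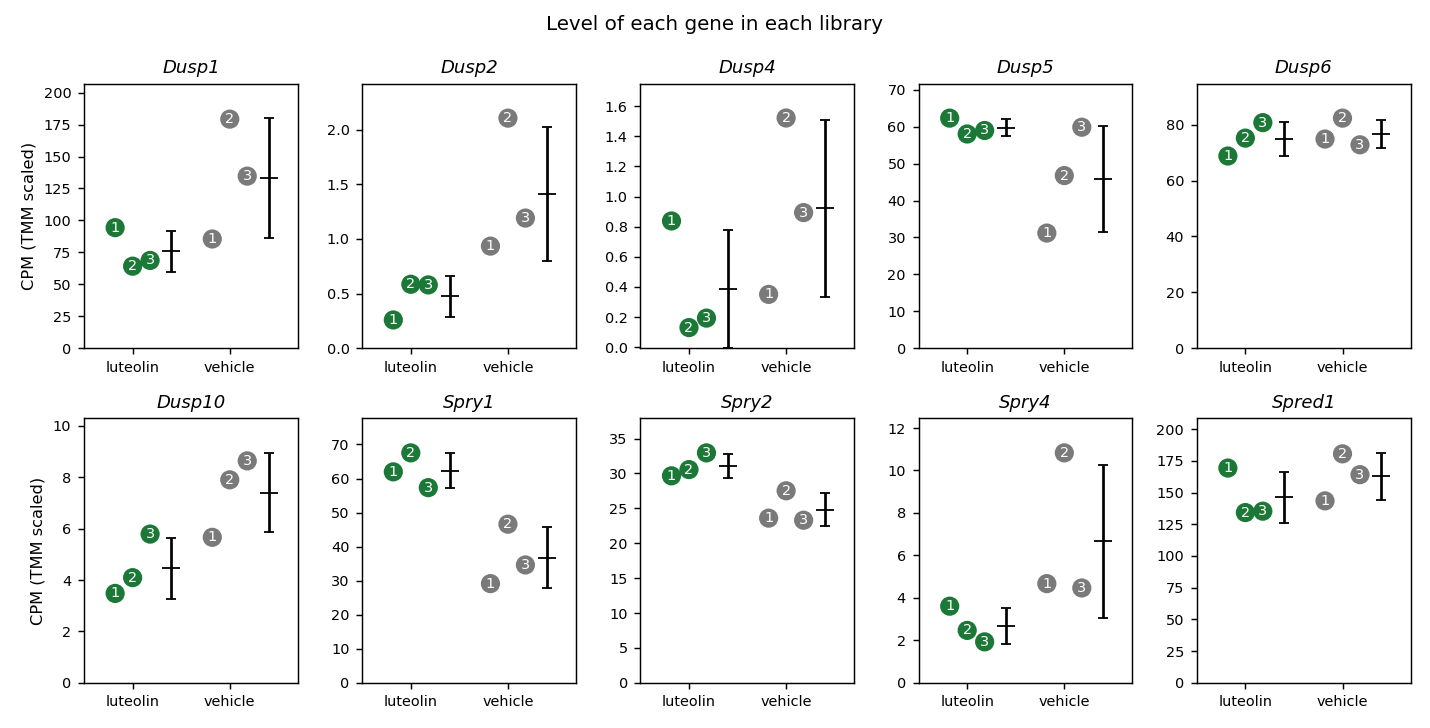
Level of each of the 10 genes in CPM in each library, with luteolin on the left and vehicle on the right of each panel; numbered points are libraries and the bar beside them is the mean with its SD (n = 3). Spry1, Spry2, Spry4 and Dusp2 have groups that do not overlap, and vehicle 2 is the highest vehicle library for every gene but Dusp5 and Dusp10.

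Dusp1, an immediate early phosphatase of the nucleus that acts on p38, JNK and ERK, stood at 94.3, 64.2 and 68.7 CPM in luteolin 1, 2 and 3 and at 85.4, 179 and 135 CPM in vehicle 1, 2 and 3. Luteolin 1 lay above vehicle 1, so the groups overlapped, and vehicle 2 was about as far above vehicle 3 as vehicle 3 was above vehicle 1. Dusp1 had a log2 fold change of -0.81 (SE 0.27), with an edgeR adjusted p of 0.0320. The call ended without luteolin 2, luteolin 3, vehicle 2 or vehicle 3, with log2 fold changes of -0.54 (without vehicle 2) to -0.82, and over all 18 alternatives the adjusted p ran from 0.00601 to 0.0954.

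Dusp2, a nuclear phosphatase best known from activated leukocytes, was scarce: it had 4, 9 and 9 reads in luteolin 1, 2 and 3 and 16, 36 and 20 reads in vehicle 1, 2 and 3. That came to 0.258, 0.585 and 0.579 CPM with luteolin and 0.934, 2.11 and 1.19 CPM with vehicle. Every luteolin library was below every vehicle library. Its log2 fold change was -1.56 (SE 0.46, edgeR adjusted p = 0.0222), and the call ended without luteolin 1 (-1.28) or vehicle 2 (-1.15), with adjusted p from 0.0119 to 0.0707 over 17 alternatives. In the same libraries the summed level of 14 leukocyte genes was 213 to 257 CPM with luteolin and 338 to 434 CPM with vehicle, highest in vehicle 2. Without Itgam, left out after its values were seen because it alone was higher and made up most of the luteolin sums, the sum was 31.1 to 38.9 CPM with luteolin and 206 to 298 CPM with vehicle, and none of the 14 was at 0 in any library. Its part in the Dusp2 values was not tested.

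Dusp4, a nuclear phosphatase related to Dusp1, had only 13, 2 and 3 reads in luteolin 1, 2 and 3 and 6, 26 and 15 reads in vehicle 1, 2 and 3. The groups overlapped, luteolin 1 being close to vehicle 3. The log2 fold change of -1.23 had a 95% interval of -3.02 to 0.56 (edgeR adjusted p = 0.199), so a change in either direction was not resolved. It was called lower without luteolin 1, with a log2 fold change of -2.47 and an edgeR adjusted p of 0.0475 (0.0475 to 0.502 over 17 alternatives).

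Dusp10, which acts mainly on p38 and JNK, stood at 3.48, 4.09 and 5.79 CPM in luteolin 1, 2 and 3 and at 5.66, 7.90 and 8.64 CPM in vehicle 1, 2 and 3. Luteolin 3 and vehicle 1 lay side by side, the remaining libraries apart. Its log2 fold change was -0.73 (SE 0.25, edgeR adjusted p = 0.0372). The call ended without luteolin 1, luteolin 2, vehicle 2 or vehicle 3 (log2 fold changes of -0.59 to -0.69), and the adjusted p over 18 alternatives was 0.0106 to 0.101.

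Dusp5 and Dusp6, which act on ERK, were not called. Dusp5, which holds ERK in the nucleus, stood at 62.3, 58.0 and 59.0 CPM in luteolin 1, 2 and 3 and at 31.2, 46.8 and 59.9 CPM in vehicle 1, 2 and 3. The luteolin libraries lay close together (SD 2.26 CPM) and the vehicle libraries spread widely (SD 14.4 CPM), with vehicle 3 at the luteolin level. The log2 fold change of 0.38 did not pass (95% interval -0.10 to 0.86, edgeR adjusted p = 0.148); without vehicle 3 it was 0.60 and was called higher (edgeR adjusted p = 0.0166, 0.0166 to 0.297 over 18 alternatives).

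Dusp6, the cytoplasmic ERK phosphatase and a common readout of ERK activity, was at 68.8, 75.2 and 80.7 CPM in luteolin 1, 2 and 3 and at 74.9, 82.4 and 72.8 CPM in vehicle 1, 2 and 3. The groups were interleaved. Its log2 fold change was -0.03, with the narrowest 95% interval of the 10 genes, -0.22 to 0.15, and an edgeR adjusted p of 0.736. With library sizes only it was -0.15 (edgeR adjusted p = 0.148, 0.138 to 0.919 over 18 alternatives).

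Among the Sprouty genes, whose products block RAS activation by growth factor receptors, Spry1 and Spry4 went opposite ways. Spry1 was at 62.0, 67.5 and 57.3 CPM in luteolin 1, 2 and 3 and at 29.1, 46.6 and 34.6 CPM in vehicle 1, 2 and 3. Every luteolin library was above every vehicle library, and vehicle 2 came nearest. On the log2 scale Spry1 was higher by 0.76 (SE 0.16), a 1.69-fold difference with an edgeR adjusted p of 0.00592, and it was called in all 18 alternatives, at 0.58 to 0.97. Its counts were not whole numbers in 3 libraries, as when a read is shared out among similar sequences, which leaves its level uncertain to that extent.

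Spry2 was at 29.7, 30.5 and 32.9 CPM in luteolin 1, 2 and 3 and at 23.6, 27.5 and 23.3 CPM in vehicle 1, 2 and 3. The groups did not overlap, but the gap from luteolin 1 to vehicle 2 was small. With a log2 fold change of 0.32 (SE 0.09) it passed, at an edgeR adjusted p of 0.0182. This call depended on the scaling: the change was 0.21 with library sizes only and 0.23 with upper quartile factors, and it passed in neither. It also ended without luteolin 3, vehicle 1 or vehicle 3 (0.26 to 0.28), and the adjusted p over 18 alternatives was 0.00386 to 0.158.

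Spry4 was at 3.61, 2.47 and 1.93 CPM in luteolin 1, 2 and 3 and at 4.67, 10.8 and 4.47 CPM in vehicle 1, 2 and 3. All luteolin libraries were below all vehicle libraries, of which vehicle 2 was far above the others. The log2 fold change was -1.32 (SE 0.41, edgeR adjusted p = 0.0276). The call ended without luteolin 2 (-1.27), luteolin 3 (-1.13) or vehicle 2 (-0.77), with adjusted p from 0.00681 to 0.103 over 18 alternatives. The ratio of Spry1 to Spry4 within a library, which no scaling factor touches, was 38.6, 60.9 and 66.0 in luteolin 1, 2 and 3 and 14.6, 9.90 and 17.6 in vehicle 1, 2 and 3, in FPKM. This pair was chosen after its values were seen.

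Spred1, which carries the RAS inhibitor neurofibromin to the membrane, was at 169, 134 and 135 CPM in luteolin 1, 2 and 3 and at 143, 181 and 164 CPM in vehicle 1, 2 and 3. The groups overlapped, with luteolin 1 above both vehicle 1 and vehicle 3. The log2 fold change of -0.15 did not pass (95% interval -0.43 to 0.12, edgeR adjusted p = 0.296). Without luteolin 1 it was -0.28 (edgeR adjusted p = 0.0540). Spred1 passed in 0 of 18 alternatives, with adjusted p from 0.0540 to 0.620.

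**Figure D2:**
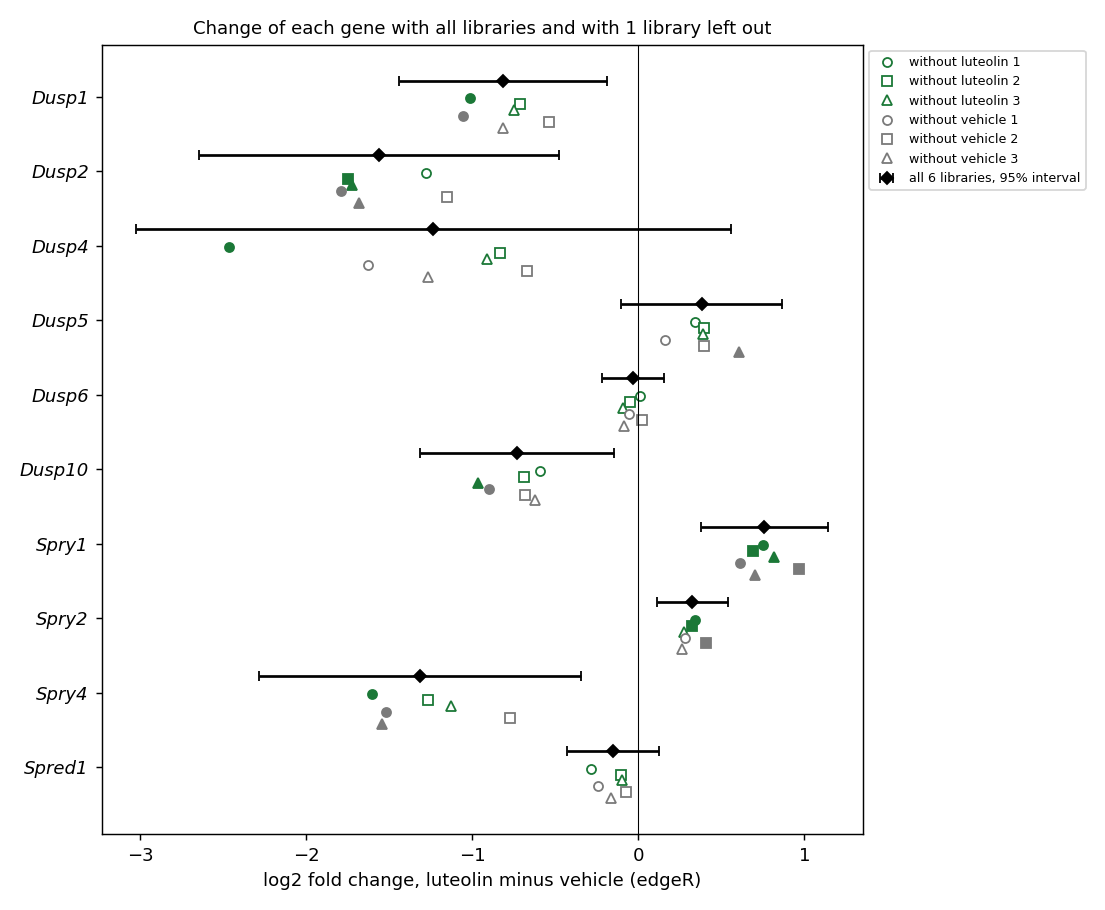
Log2 fold change (luteolin minus vehicle, edgeR) of each gene; black diamonds with 95% intervals use all 6 libraries, and coloured symbols leave out 1 library, filled where the adjusted p is under 0.05. Spry1 is filled throughout, at 0.61 to 0.97, while Dusp1, Dusp2, Dusp10 and Spry4 are open without vehicle 2 (-0.54, -1.15, -0.68 and -0.77).

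The vehicle libraries differed in these genes in a partly shared way. Dusp1, Dusp2, Dusp4, Dusp6, Spry1, Spry2, Spry4 and Spred1 were all highest in vehicle 2 among the vehicle libraries, where the keratocyte, vessel, leukocyte and muscle sums were also highest. With the mean of the muscle list as a covariate, edgeR called 0 members lower (3 at an unadjusted p under 0.05) and still called Spry1 and Spry2 higher. In that fit Dusp1 had a log2 fold change of -0.81, Dusp10 -0.72, Dusp2 -1.36 and Spry4 -1.07. Within the luteolin group the highest library was luteolin 1 for Dusp1, Dusp4, Dusp5, Spry4 and Spred1 and luteolin 3 for Dusp6, Dusp10 and Spry2. Over the 6 libraries the Pearson r of log2 CPM was 0.99 for Dusp4 and Spred1 and 0.96 for Dusp1 and Dusp4, and after subtraction of the group means it was 0.99 and 0.97. For Spry1 and Spry2 it was 0.92 over the 6 libraries and 0.63 within groups. These pairs had the highest r of all pairs of members over the 6 libraries and were named after their values were seen. Dusp4 had only 2 to 26 reads per library. Spry1 and Spry4, which went opposite ways between the groups, had an r of -0.45 over the 6 libraries and 0.81 within groups. These correlations are given without a test.

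Compared per length, in FPKM (fragments scaled by gene length and depth), the genes fell into an abundant and a scarce set in both groups. In luteolin corneas the order of mean FPKM was Dusp1 (44.6 ± 9.85), Dusp5 (38.2 ± 1.66), Spry1 (30.2 ± 2.59), Dusp6 (28.9 ± 2.2), Spred1 (23.7 ± 3.25) and Spry2 (15.3 ± 0.725; SD, n = 3). In vehicle corneas it was Dusp1 (85.2 ± 29.4), Dusp6 (32.2 ± 2.25), Dusp5 (31.8 ± 9.38), Spred1 (28.4 ± 2.93), Spry1 (20.2 ± 4.69) and Spry2 (13.5 ± 1.40; SD, n = 3). With luteolin, the libraries of Dusp1 and Dusp5, of Spry1 and Dusp6, and of Dusp6 and Spred1 overlapped. With vehicle, those of Dusp6, Dusp5 and Spred1 overlapped in turn and those of Dusp5 and Spry1 did too, while Dusp1 lay above all others. Dusp10 came next in both groups, at 1.90 ± 0.344 FPKM with luteolin and 3.43 ± 0.710 FPKM with vehicle (SD, n = 3). Spry4, Dusp2 and Dusp4 followed in that order, at 0.580, 0.347 and 0.177 FPKM with luteolin and 1.58, 1.13 and 0.453 FPKM with vehicle. Libraries of Spry4 and Dusp2 overlapped in both groups, and those of Dusp2 and Dusp4 overlapped with luteolin.

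The make-up of the summed FPKM of the 10 genes differed between the groups. Dusp1 made up 28.2%, 21.4% and 22.6% of it in luteolin 1, 2 and 3 and 32.9%, 43.8% and 38.3% in vehicle 1, 2 and 3. Spry1 made up 15.2%, 18.7% and 15.6% in luteolin 1, 2 and 3 and 9.70%, 9.71% and 8.35% in vehicle 1, 2 and 3. For both genes the shares of the groups did not overlap, and that of Dusp5 did not either (20.2% to 21.1% with luteolin and 12.4% to 18.5% with vehicle). Shares of the scarce Dusp2 and Spry4 did not overlap either and were lower with luteolin. The shares of a library add up to the whole, so a lower share of Dusp1 by itself raises the others. Dusp5 overlapped in CPM and was not called, so its share is no separate evidence of a change. The sum itself overlapped, at 198, 176 and 178 FPKM in luteolin 1, 2 and 3 and 170, 262 and 221 FPKM in vehicle 1, 2 and 3.

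**Figure D3:**
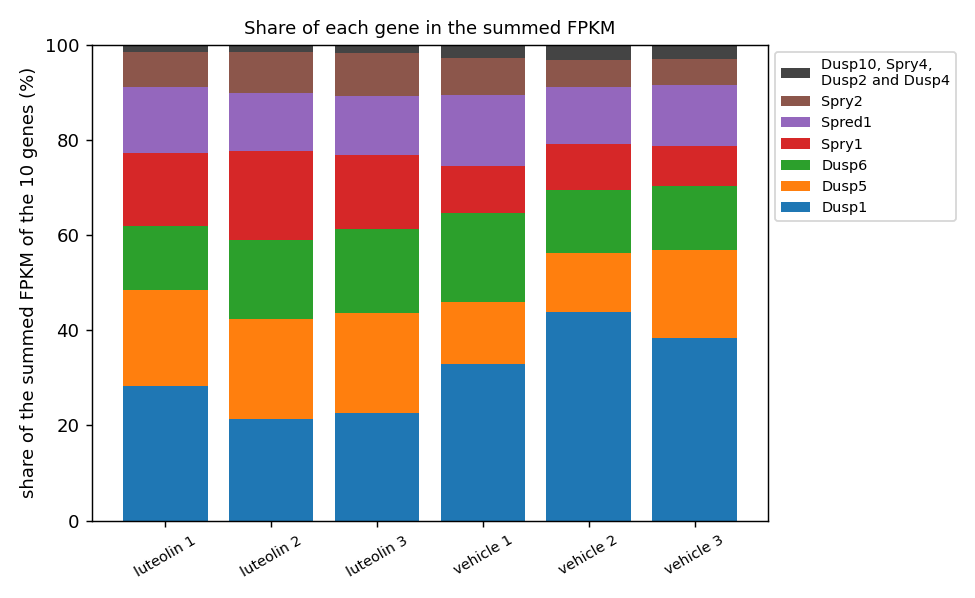
Share of each gene in the summed FPKM of the 10 genes (vertical axis, percent), 1 bar per library, with luteolin libraries on the left and vehicle libraries on the right. Dusp1 takes 21.4% to 28.2% of the luteolin bars and 32.9% to 43.8% of the vehicle bars, and the 4 scarce genes together form the dark cap.

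Other negative regulators of the pathway were listed beside the members, and they also moved both ways. Of 22 tested, 9 rose, 6 fell and 7 were not called, and the median log2 fold change was 0.06. Among all tested genes 28.5% were higher and 30.4% lower. The split depended on the scaling, with 7 higher and 8 lower under upper quartile factors or library sizes only, and 6 higher and 7 lower with limma-trend on log2 FPKM. Lrig1, which restrains ErbB receptors, had a log2 fold change of 0.74, Dusp16, a JNK and p38 phosphatase, 0.58, the RAS GTPase-activating genes Rasal2 and Nf1 0.45 and 0.51, and Dusp9, an ERK phosphatase, -3.69 (edgeR adjusted p from 0.000409 to 0.00150). Dusp9 had 0.129, 0.520 and 0.193 CPM in luteolin 1, 2 and 3 and 4.50, 2.99 and 3.63 CPM in vehicle 1, 2 and 3, with no overlap. Among the closest relatives of the members, chosen after their values were seen, Spred2 was higher (0.26) and Spred3 lower (-1.30), Dusp7, the nearest relative of Dusp6, was lower (-0.57), and Il17rd, a Sprouty-like inhibitor of FGF signalling, was lower (-1.12). Spry3 had at most 1 read in a library and was not tested.

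Upstream of the Sproutys, receptor and ligand genes moved both ways. The counts of this paragraph compare with 28.5% higher and 30.4% lower among all tested genes. Of 9 receptor tyrosine kinases 5 rose and 3 fell (median 0.34): Egfr, Erbb2, Erbb3 and Fgfr2 had log2 fold changes of 0.84, 0.81, 0.75 and 0.60, and Pdgfra, a receptor of stromal cells, -1.34. Of 15 growth factor ligands 3 rose and 6 fell (median -0.11). The number higher was 5 with DESeq2 or without vehicle 3 and 2 with limma-trend or without luteolin 2, and 5 or 6 were lower over the alternatives. The ErbB ligand Btc (1.33) and Pdgfa (0.39) were higher, and Fgf7 (-3.33), Hgf (-2.53) and Pdgfb (-0.86) were lower. Other ErbB ligands, named after their values were seen, went both ways. Egf was higher (0.78), Tgfa (-0.65), Areg (-1.24) and Epgn (-1.17) were lower, and Hbegf, Ereg and Nrg1 were not called. The cascade itself moved little: of 21 genes of the ERK cascade 9 rose and 5 fell, all by less than 1 on the log2 scale (median 0.12), led by Braf (0.61), the docking protein gene Gab1 (0.53), the RSK kinase gene Rps6ka3 (0.51), Sos2 (0.49) and Araf (0.38). With upper quartile factors or library sizes only, 7 were higher and 6 lower, and with limma-trend 6 and 6. Of 16 genes of the JNK and p38 cascades 6 rose and 2 fell (median 0.07), led by the stress kinase gene Map3k5 (1.44), Map3k1 (0.65), Map2k6 (0.52) and Map2k7 (0.43), with Mapkapk2, a p38 substrate kinase, lower (-0.30). Here the counts were 4 higher and 3 lower with upper quartile factors or library sizes only, and 3 and 3 with limma-trend, and 1 was lower without luteolin 2.

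Downstream, of 14 transcripts that rise with ERK activity 7 fell, 1 rose and 6 did not pass (median -0.39), where 30.4% of all tested genes were lower; the number lower was 5 to 9 over the alternatives, and 2 were higher without vehicle 3. The ETS factor gene Etv4, often induced with the Sproutys by FGF signalling, was at 3.16, 3.12 and 4.63 CPM in luteolin 1, 2 and 3 and at 27.1, 22.5 and 28.7 CPM in vehicle 1, 2 and 3, with no overlap. Its log2 fold change was -2.84, and those of Hmga2, Plaur and Vegfa were -5.21, -3.98 and -1.48, while Epha4 was higher (0.44). Fosl1, named after its values were seen, had 0 reads over the luteolin group. Set against 3 counts for the whole group, a limit that covers counting error only, it was at least 58.6-fold lower. The ERK targets Ccnd1, Phlda1 and Epha2 did not pass, at -0.05, 0.08 and -0.11, and were looked up after their values were seen.

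Of 13 immediate early genes, which rise within minutes of a stimulus and also with tissue handling, 6 fell and 7 did not pass (median -0.14). Over all tested genes 30.4% were lower. Nr4a1 was at 0.774, 0.780 and 0.772 CPM in luteolin 1, 2 and 3 and at 5.14, 53.4 and 33.7 CPM in vehicle 1, 2 and 3. Its order of vehicle libraries was that of Dusp1, and also that of Dusp2, Dusp4, Spred1 and the higher Spry1. The orders of vehicle libraries were compared after the values were seen. Atf3 (log2 fold change -2.28), Egr3 (-3.57), Egr2 (-1.95) and Jun (-0.39) also fell, and vehicle 1 was the lowest vehicle library for each of the 4. Fos (-0.14), Egr1 (0.28) and Junb (0.05), also named after their values were seen, did not pass. The part of handling in the Dusp1 values was not tested.

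**Figure D4:**
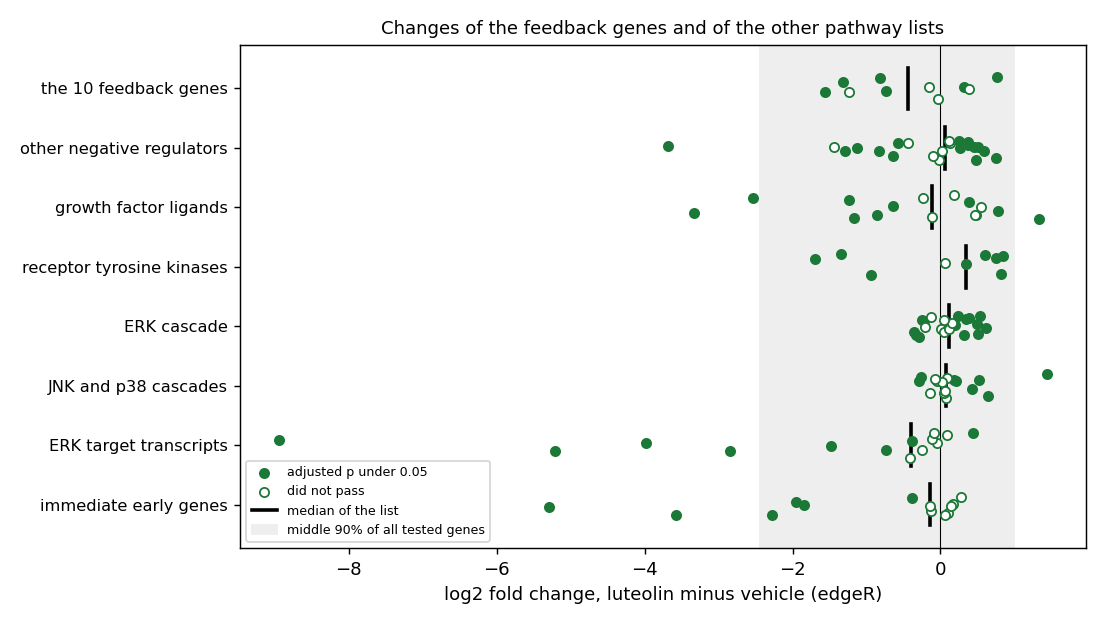
Log2 fold change (luteolin minus vehicle, edgeR) of every tested gene in the 10 feedback genes and 7 pathway lists; filled points have an adjusted p under 0.05, black bars are list medians, and the grey band spans the 5th to 95th percentile of all tested genes (-2.44 to 0.99). All 10 feedback genes lie inside the band; Fosl1, the point farthest left, had 0 luteolin reads and its fitted value is not a bound.

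Markers of cell types in or around the cornea moved with the groups in part. In the main edgeR fit every marker list but that of skeletal muscle held called genes, where 28.5% of all tested genes were higher and 30.4% lower. Of 11 corneal epithelial genes 8 rose and 1, Krt14 (-3.64), fell, with Pax6 at 0.74, and of 13 tested leukocyte genes 12 fell and Itgam, named after its value was seen, rose, with Mrc1 at -3.40 and Fcgr3 at -3.38. Of 10 vessel genes 9 fell (Cdh5 -3.18, Vwf -2.75; sums of 38.6 to 44.8 CPM with luteolin and 154 to 263 CPM with vehicle), and of 10 keratocyte genes 5 fell, led by Fbn1 (-2.80) and Cd34 (-2.08). That keratocyte count was 3 without luteolin 1, luteolin 3, vehicle 1 or vehicle 2, with robust dispersion or with the muscle covariate, and 8 with the replicate block. Of 4 conjunctival genes 3 fell (Krt4 -1.28, Krt13 -0.78), and of 6 corneal endothelial genes 2 fell (Car2 -2.55, Tfap2b -0.83). That endothelial count was 1 without luteolin 2, luteolin 3 or vehicle 1, and 1 to 4 over the alternatives. Of 9 tested muscle genes (Ckm -2.77, Myh1 -2.47), the main edgeR fit called 0, and 0 had an unadjusted p under 0.05. Among the alternatives, 4 were called lower without vehicle 3, and 1 without luteolin 3, with DESeq2 or with no filter. With the muscle covariate, taken from this same list, 1 was called higher. Ckm had no reads in luteolin 2 and vehicle 3. The part of these cell types in the feedback gene values was not tested.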

How the data were processed

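RNA of whole corneas was sequenced with an Illumina TruSeq kit, per the labels' protocols, and samples were grouped by title. RSEM 1.2.12, Bowtie2 2.2.5 and mm9 appear in the submitters' processing notes. Their roles, the gene annotation and strand use were not given in the sources used here; antisense reads may thus not be told apart. The authors deposited estimated counts, FPKM, TPM and a signal of normalized read counts, per the file headers. The deposited TPM values were not used, and 8 columns of group averages were left out.

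Estimated counts were rounded and tested with edgeR 4.0.16 (R 4.3.3): filterByExpr (minimum count 10, minimum total 15, which removed 3956 genes), TMM, quasi-likelihood test without a replicate block, Benjamini-Hochberg over 13838 genes. An SE is the log2 fold change over the square root of F. The code was tested on simulated data. Alternatives were DESeq2 1.42.0, other factors, filters and dispersion, a replicate block, limma 3.58.1 on log2(FPKM + 1) or log2(FPKM + 0.1), a muscle covariate and leaving out each library; with 1 left out, its group rests on 2.

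The members and lists were chosen with earlier results of these data known. Named genes were all members, the 3 (or 5) list genes and 2 markers with the smallest p, and the nearest profiles; 1 gene that this rule chose is not reported here.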

Additional observations from a re-analysis of the deposited data

How the results depend on the processing

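Of the 10 members, 9 kept their direction in every alternative that gave a value, and Dusp6 changed sign: its log2 fold change, -0.03 with all libraries, was 0.024 with the muscle covariate and between -0.094 and 0.021 without 1 library. The number of genes called over the whole table, 8157, was 6795 to 8493 over the alternatives. The 4 lower members became 0 with the muscle covariate and 0 to 4 without 1 library. Without luteolin 1 the 3 called lower were Dusp1, Spry4 and Dusp4, the last not called with all libraries. The 2 higher members became 1 with upper quartile factors, library sizes only and limma-trend on log2 FPKM with any pseudocount or filter. Without 1 library, 1 or 2 members were called higher. Spry2 was the gene lost, also without vehicle 3, where the 2 called were Spry1 and Dusp5. With the replicate block, 7934 genes, 3 lower members (Dusp1 was lost, at an edgeR adjusted p of 0.0678) and 2 higher members were called. Samples with the same number did not deviate together (correlations of deviations -0.16, 0.06 and 0.11), so the numbers are not treated as pairs. Dusp1 was also lost with robust dispersion, and Spry4 with limma-trend without a filter. Dusp2 and Dusp4 gave no value with a filter of 1 CPM in 3 libraries. Dusp2 and Dusp4 had only 2 to 36 reads per library. The causes were not tested.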

Other observations

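The genes whose profiles over the 6 libraries lay nearest to those of Dusp2 and Spry1, the member of each family with the smallest p, were found among 13260 genes by Euclidean distance of centred log2(CPM + 0.5). For Dusp2 they were Apba1 (distance 0.11), Igfbp6 (0.24) and Gabra3 (0.29), and for Spry1 they included Ctf1 (0.17) and Klc4 (0.22). Because they were chosen by distance, a like order of libraries follows from the choice and is not a separate result. The added 0.5 shrinks the differences between libraries for Dusp2, at 0.258 to 2.11 CPM, so its distances describe a shrunken profile. Igfbp6, an insulin-like growth factor binding protein gene, stood at 7.67, 9.62 and 9.20 CPM in luteolin 1, 2 and 3 and at 14.7, 26.7 and 17.0 CPM in vehicle 1, 2 and 3. Like Dusp2, it was highest in vehicle 2 and lowest in luteolin 1. Ctf1, the gene of the cytokine cardiotrophin, stood at 6.06, 6.50 and 6.31 CPM in luteolin 1, 2 and 3 and at 2.51, 4.45 and 3.28 CPM in vehicle 1, 2 and 3, with vehicle 2 nearest to the luteolin libraries, as for Spry1.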
